A study of Mus musculus with 54 samples.

Results

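The libraries of the combined knockdown and its mock control were 6 of the 54 RNA sequencing libraries of the series and 6 of the 36 of its reprogramming experiment: 3 of M2-like macrophages transfected with the E2f1-Myc-Pparg-Stat6-siRNA pool, which the study calls iM1 macrophages, and 3 of M2-like macrophages treated as mock. Both groups were chosen by their labels. All cells were adherent peritoneal exudate cells of C57BL/6 mice aged 8 to 20 weeks, harvested 4 days after an injection of 1 ml of 3% thioglycolate and cultured for 24 h with IL-4 at 10 ng/ml, which induces an M2-like state. They were then transfected with DharmaFECT 4 and kept without IL-4 until RNA was taken 48 h later. The mock cells received the transfection reagent without siRNA, so knockdown and the presence of siRNA cannot be told apart in combined against mock. Values of 3 libraries of M2-like macrophages given a negative siRNA pool are therefore set beside it. The Myc pool came from another manufacturer than the E2f1, Pparg and Stat6 pools, so loss of Myc and that reagent cannot be told apart either. A source for the negative pool is not given in the sources used here.

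STAT6 carries the IL-4 signal to the nucleus, and PPARG, a nuclear receptor for fatty acids, takes part in the lipid metabolism of macrophages activated in this way. MYC and E2F1 are factors of growth and of the cell cycle. Macrophages also hold sensors of foreign RNA and DNA, among them Toll-like receptors of the endosome and the RIG-I-like receptors of the cytosol. These sensors switch on type I interferon, which acts through a factor that holds STAT2 and IRF9 on genes with an interferon-stimulated response element, and NF-kB, which acts on genes of inflammation.

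Total counts assigned to genes were 15181112 to 17342594 in the combined libraries, 14959343 to 16499677 in mock and 15505223 to 18150125 with the negative pool. Values are given as CPM, read counts of a gene relative to the library's total, scaled by trimmed mean of M-values (TMM). The TMM factors were 1.04 to 1.07 in the combined libraries and 0.93 to 0.95 in mock and did not overlap. Of 14172 genes tested, a gene was called at an adjusted p under 0.05 in edgeR's quasi-likelihood test with Benjamini-Hochberg adjustment, and ± in the text marks a standard error (SE). The labels number the replicates but do not name separate mice or cultures. The study's methods for RNA isolation and PCR call the replicates of M2-like and iM1 macrophages biological, without stating whether these were separate mice. The p-values therefore measure the spread between these samples.

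All 4 siRNA targets were lower in the combined libraries than in mock. Pparg stood at 39, 38.1 and 33.5 CPM in the combined libraries against 116, 128 and 112.02 CPM in mock, and at 123, 138 and 129.6 CPM with the negative pool. Myc stood at 8.58, 8.04 and 7.3 CPM against 21, 23.6 and 20.4 CPM in mock, E2f1 at 11.9, 11.9 and 12.6 against 25.7, 28.3 and 26.5 CPM, and Stat6 at 165, 168 and 142 against 282, 278 and 303 CPM. No combined library overlapped a mock library for any target. The log2 fold changes were -1.69 for Pparg, -1.44 for Myc, -1.14 for E2f1 and -0.86 for Stat6, with adjusted p of 5.96e-16, 1.06e-08, 5.82e-10 and 5.9e-09. E2f1 was also lower with the negative pool than with mock, at 20.9, 17.3 and 22 CPM (log2 fold change -0.42, adjusted p = 0.00715), and the log2 difference of the combined libraries from the negative pool was -0.73. The residual level in the combined libraries averaged 55.1% of mock for Stat6, 45.2% for E2f1, 36.8% for Myc and 31% for Pparg, against 27.9%, 18.9%, 35.4% and 24.1% under the pool aimed at that gene alone.

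**Figure D1:**
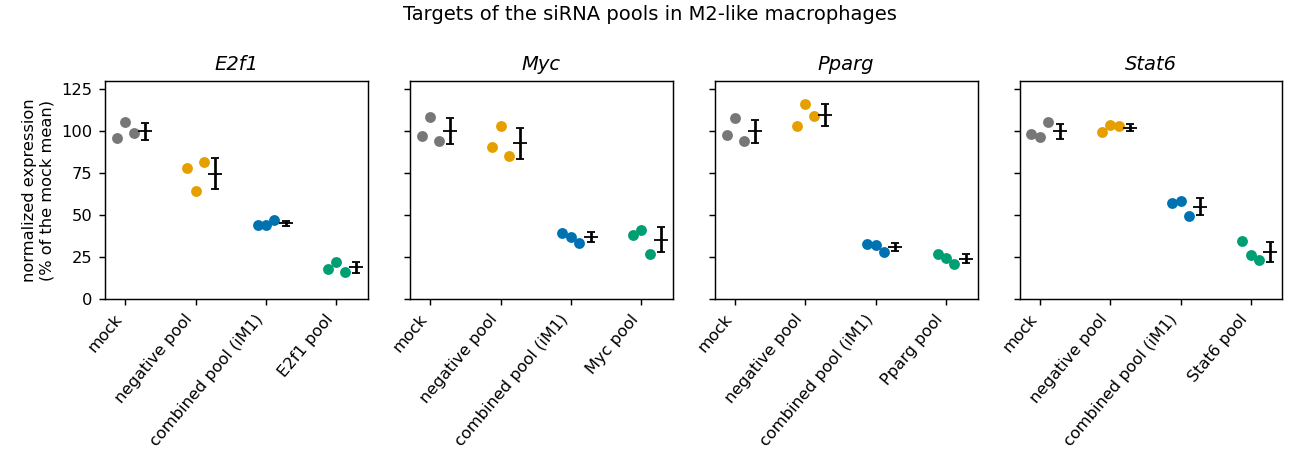
Normalized expression of the 4 targets as a percentage of the mock mean in single libraries (points) with group means (bars), the vertical axis starting at 0. The combined libraries sit between 28.2% (Pparg) and 58.5% (Stat6) of mock, and E2f1 with the negative pool sits between 64.5% and 81.9%.

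Across the transcriptome, 2687 genes (19.0% of those tested) were higher and 2567 (18.1%) were lower in the combined libraries than in mock. The 3 libraries of one group did not overlap those of the other for 2548 of the higher and 2406 of the lower genes. Most changes were small: 59.5% of called genes changed by less than 1.5-fold, while 638 rose and 436 fell by at least 1 on the log2 scale. Of the 110 tested genes of the metabolic and polarization signature compiled in the study, 28 were higher and 32 lower. This was a share of called genes above the 37.1% of all genes. The study picked the metabolic genes for a difference between its M1-like and M2-like macrophages and added markers from the literature. The signature also holds Stat6, a siRNA target. How far this choice of genes sets the share was not tested. Most counts lay outside this small signature, with 2659 higher and 2535 lower among 14062 tested genes. The negative pool against the same mock libraries gave 945 higher (6.67%) and 713 lower genes (5.03%). Combined against negative pool, in which both groups held siRNA, gave 1778 higher (12.5%) and 1972 lower genes (13.9%).

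The split between higher and lower depended on the scaling. With library totals in place of TMM factors, an alternative chosen after seeing the data, 4714 genes were higher and 1463 lower, and log2 fold changes moved up by a median of 0.16. Changes of that size have no settled direction. The list medians of DNA replication, E2F and pocket protein, IL-4 activation, PPAR, nucleotide, RNA interference, stress response and lysosomal genes changed sign with it, so these lists are described by their counts under both scalings.

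**Figure D2:**
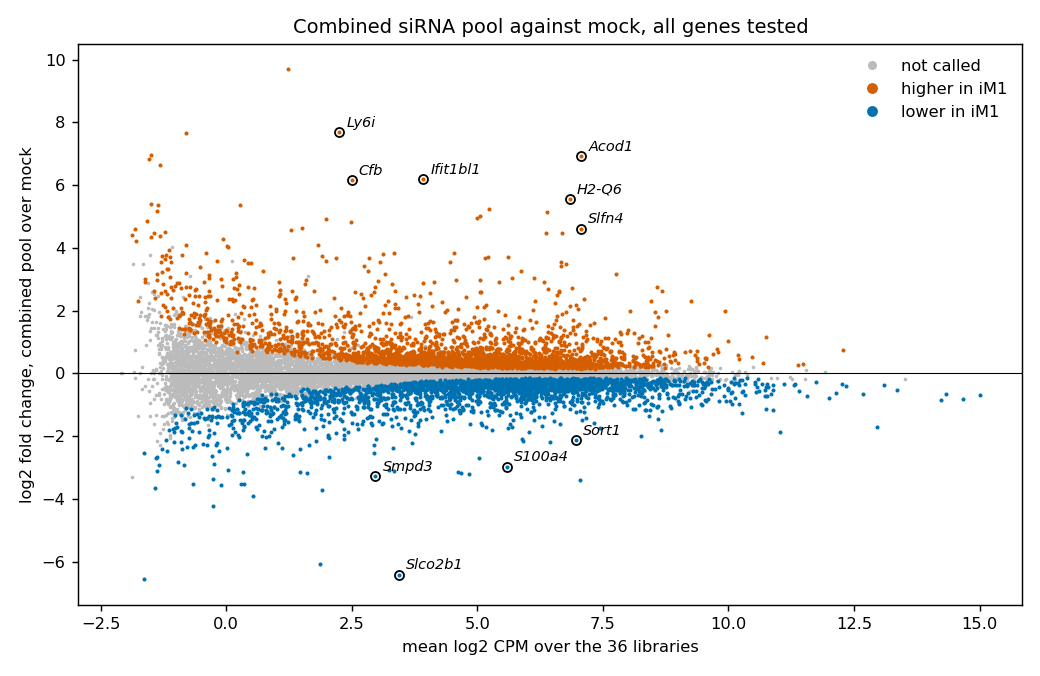
Log2 fold change of combined over mock (vertical) against mean log2 CPM over the 36 libraries (horizontal) for the 14172 genes tested, coloured by call. Labelled higher genes reach 7.69 (Ly6i), labelled lower genes reach -6.42 (Slco2b1), and abundant genes at the right lie mostly below 0.

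Abundant transcripts were mostly lower. Among the 86 genes with a mean log2 CPM of at least 10 over all 36 libraries, 57 fell and 8 rose, with a median log2 fold change of -0.34. Among the 1668 genes below a mean log2 CPM of 0, 75 fell and 157 rose, with a median of 0.11. The CPM of the 50 genes highest in mock, picked by their mock level, were summed and are given as percentages. The sums were 18.6 to 20.5% in the combined libraries, 28 to 29.4% in mock and 25.5 to 26.2% with the negative pool. They include the TMM factors and are not shares of the raw counts. For raw counts, the share of each library's own top 50 genes was available. It was 20.42 to 21.81% in the combined libraries, 26.68 to 27.35% in mock and 24.86 to 25.42% with the negative pool. Of the 50 genes picked by their mock level, 38 fell and 4 rose in the combined libraries, and 12 fell and 3 rose with the negative pool. Gpnmb, a glycoprotein of lipid-laden macrophages, took the most reads of them, at 39687, 36473 and 41256 CPM in mock and 27827, 24584 and 21060.0 CPM in the combined libraries. Psap, the precursor of the saposins that assist lysosomal lipid breakdown, stood at 33379, 30054 and 33140.0 CPM in mock and 19507, 19257 and 16188 CPM in the combined libraries. Neither gene overlapped between the groups (log2 fold changes -0.68 ± 0.10 and -0.81 ± 0.08). Among the 4 that rose, B2m, the light chain of MHC class I, went from 3127, 3595 and 3514 to 5795, 4954 and 6374 CPM (log2 fold change 0.74 ± 0.12, adjusted p = 4.79e-06).

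By class of transcript, 2474 of 12280 protein coding genes rose and 2382 fell. Of 211 long intergenic non-coding RNAs, 24 rose and 13 fell, and of 283 annotated antisense transcripts, 39 rose and 9 fell. The strand setting of the counting is not given in the sources used here, so reads of antisense genes and of the genes they overlap cannot be told apart.

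Outside the signature, the 15 largest increases and decreases among protein coding genes with a mean log2 CPM of at least 2 were examined. The increases included genes of metabolism, antigen presentation, pattern recognition and the interferon response. Of the 15 increases, 11 were also called higher in negative pool against mock, and 14 in combined against negative pool. Acod1, whose enzyme makes itaconate, stood at 288, 220.2 and 403 CPM in the combined libraries, 1.34, 3.08 and 3.14 CPM in mock and 18, 17.3 and 24 CPM with the negative pool. The 3 groups did not overlap for Acod1, and the combined libraries were the highest (log2 fold change over mock 6.92 ± 0.47, adjusted p = 4.43e-13, and over the negative pool 3.94). Clec4e, the Mincle receptor for mycobacterial glycolipids, stood at 162, 170.0 and 233 CPM against 7.62, 10.2 and 7.46 CPM in mock and 10.8, 14.1 and 14.9 CPM with the negative pool. H2-M2, a non-classical MHC class I gene, stood at 99.3, 88 and 188 CPM against 4.55, 3.93 and 3.69 CPM in mock and 4.81, 4.0 and 7.55 CPM with the negative pool. For Clec4e and H2-M2 only the combined libraries were high among these 3 groups: the negative pool differed from mock by 0.66 and 0.44 with adjusted p of 0.198 and 0.615, and the combined libraries exceeded the negative pool by 3.83 and 4.5 on the log2 scale. Hcar2, a receptor for niacin and hydroxybutyrate, was likewise high only in the combined libraries among these 3 groups, at 4.58, 6.09 and 8.94 CPM against 0.576, 0.701 and 0.0697 CPM in mock and 0.782, 0.800 and 0.458 CPM with the negative pool. The Myc pool alone also raised them over mock, by 4.13 for Clec4e, 4.71 for H2-M2 and 3.88 for Hcar2, and none of the 3 differed from combined at an adjusted p under 0.05. In LPS and IFN-gamma polarized macrophages treated as mock, the mean level was 443 ± 35.3 CPM for Acod1, 315 ± 36.2 CPM for Clec4e and 43.4 ± 7.0 CPM for H2-M2 (SD, n = 3), given side by side without a test.

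Other large increases were present in part with the negative pool. Cfb, complement factor B, stood at 14.4, 17.7 and 22.6 CPM in the combined libraries, 0.192, 0.421 and 0.139 CPM in mock and 2.17, 3.74 and 2.63 CPM with the negative pool. Ms4a4c, a membrane-spanning protein of leukocytes, stood at 104, 96.5 and 139, 1.54, 4.0 and 3.56 and 30.3, 36.9 and 44.4 CPM in the same order. Card14, a scaffold that activates NF-kB, stood at 30.1, 25.3 and 30.0, 1.79, 1.96 and 2.37 and 10.1, 12.4 and 10.6 CPM. For these 3 genes the negative pool lay between mock and combined with no overlap. Apol9b, an apolipoprotein L gene, rose by 4.83 and Ly6a, a surface antigen known as Sca-1, by 5.01 over mock on the log2 scale, and by 2.91 and 4.25 with the negative pool. The related gene Ly6i had 323 counts in the combined libraries and 1 in mock, a ratio of normalized counts of 282 (95% counting interval 50.3 to 11190), with 9 counts under the negative pool. These comparisons share the mock or the combined libraries by which the genes were picked, so the values are given side by side only.

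The largest of these decreases was that of Slco2b1, an organic anion transporter of the plasma membrane. It stood at 0.445, 0.326 and 0.182 CPM in the combined libraries, 26.1, 32.9 and 24.2 CPM in mock and 11.4, 15.5 and 14.4 CPM with the negative pool. No library of one group overlapped another, and the log2 fold change was -6.42 ± 0.34 over mock and -5.41 over the negative pool. Smpd3, a neutral sphingomyelinase, stood at 1.46, 1.41 and 2.98 CPM against 16.5, 18.4 and 22.1 CPM in mock, and Ramp1, a subunit of the receptor for calcitonin gene-related peptide, at 3.05, 2.44 and 1.82 CPM against 20.2, 19.0 and 23.6 CPM. Trf, the iron carrier transferrin, stood at 9.22, 13.7 and 10.5 CPM against 75.5, 77.1 and 66.2 CPM in mock and 38.6, 40.6 and 47.6 CPM with the negative pool. All 3 were low in each combined library without overlap (log2 fold changes -3.28, -3.1 and -2.7). Also lower were S100a4, a calcium-binding protein of motile cells (log2 fold change -2.97), Gamt, an enzyme of creatine synthesis (-2.55), and Gpx3, the secreted glutathione peroxidase (-2.39). Cmbl, a hydrolase, Vsig8, an immunoglobulin domain protein, and Rab3il1, an exchange factor of Rab proteins, had log2 fold changes of -3.09, -3.16 and -2.18. In negative pool against mock, 14 of the 15 decreases were also called, with log2 fold changes from -1.82 (Vsig8) to -0.58 (Cmbl). S100a4 missed the threshold there (log2 fold change -0.61, adjusted p = 0.0657). All 15 were lower in combined than in negative pool libraries. The genes were picked with the same mock and combined libraries, so these values are given side by side only.

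**Figure D3:**
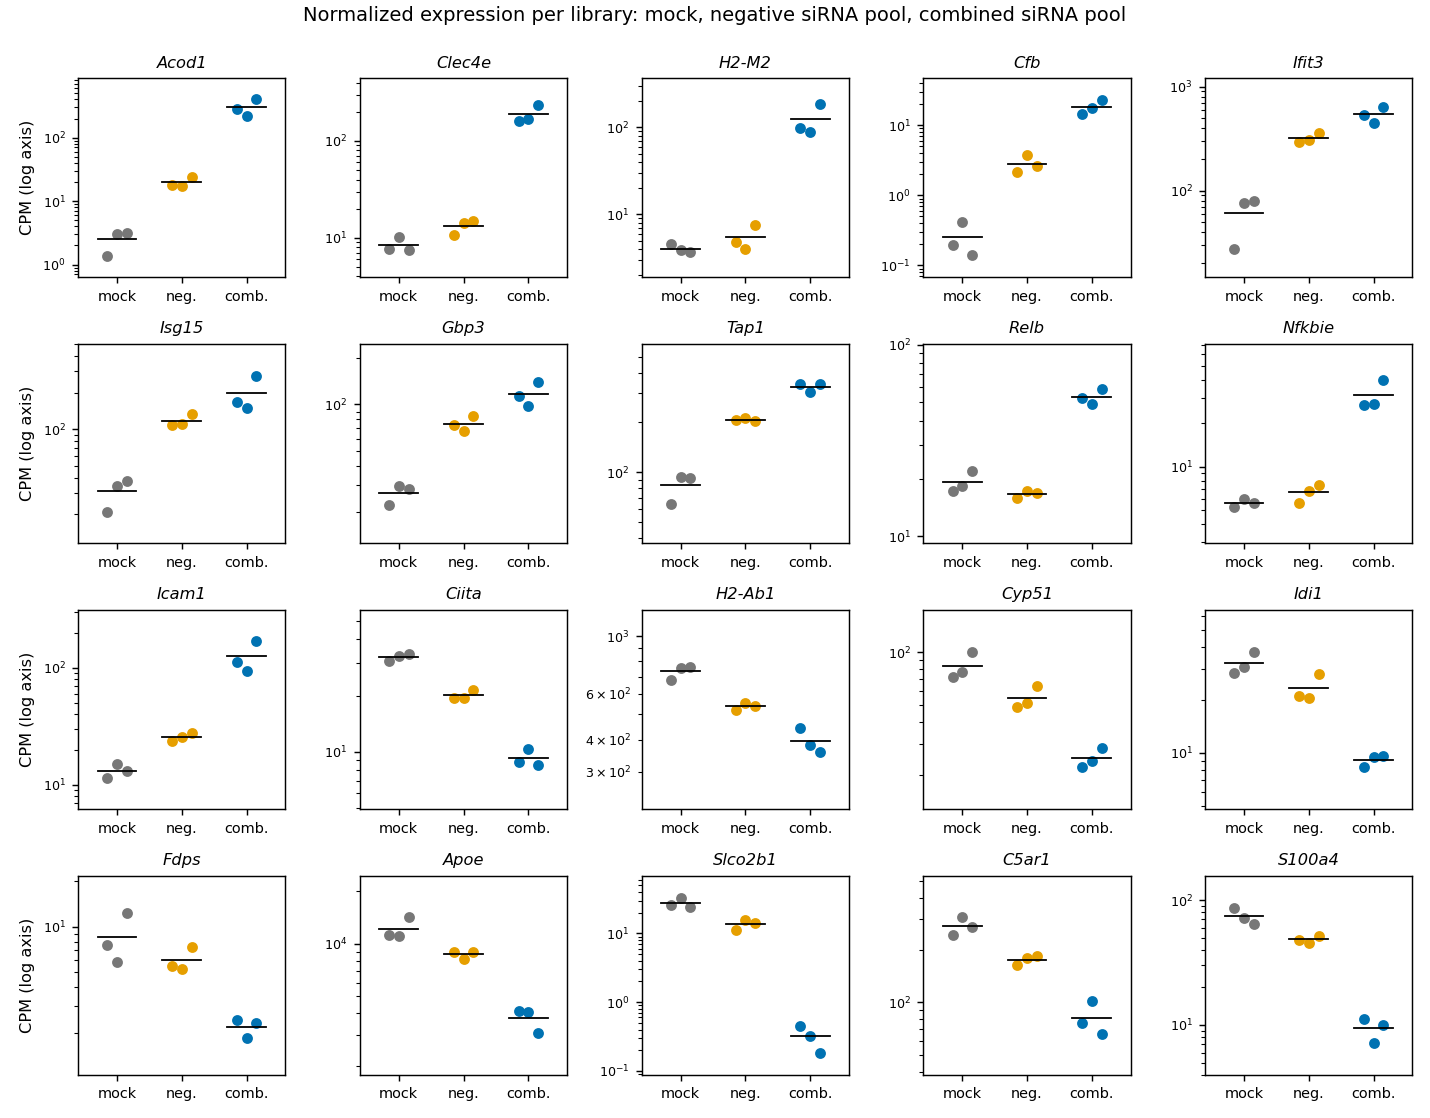
CPM on a log axis in single libraries (points) with group means (lines) for 20 genes under mock, the negative pool and the combined pool. Clec4e, H2-M2, Relb and Nfkbie are high in the combined libraries alone among the 3 groups plotted, while Ifit3, Isg15 and Gbp3 are already raised with the negative pool.

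Interferon-stimulated genes rose together, and for most of them the negative pool was also above mock. The promoters of this group are shown because many hold the interferon-stimulated response element, searched as TTTC, any 2 bases and TTTC again on both strands in the 250 bases before the start (RefSeq, GRCm38.p6, for 10137 of the 14172 genes tested). It was found in 3.47% of all these promoters, in 13 of 28 promoters of antiviral effectors (46.4%) and in 9 of 10 promoters of guanylate-binding proteins and immunity-related GTPases. Capitals mark the matches, including overlapping ones in Isg15, in Ifit1 (chr19:34640639-34640888, plus strand), Isg15 (chr4:156200819-156201068, minus strand), Gbp2 (chr3:142620413-142620662, plus strand) and Igtp (chr11:58199306-58199555, plus strand):
Ifit1: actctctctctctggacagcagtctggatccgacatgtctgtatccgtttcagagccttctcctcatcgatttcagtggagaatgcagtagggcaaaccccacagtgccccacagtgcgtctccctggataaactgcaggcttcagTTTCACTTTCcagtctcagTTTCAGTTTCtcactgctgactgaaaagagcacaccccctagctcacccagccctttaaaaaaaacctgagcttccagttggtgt
Isg15: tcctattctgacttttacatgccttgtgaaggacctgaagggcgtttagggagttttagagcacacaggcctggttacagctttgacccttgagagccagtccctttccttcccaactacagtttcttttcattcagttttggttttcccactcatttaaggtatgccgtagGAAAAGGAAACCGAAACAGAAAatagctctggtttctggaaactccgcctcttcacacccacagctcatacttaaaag
Gbp2: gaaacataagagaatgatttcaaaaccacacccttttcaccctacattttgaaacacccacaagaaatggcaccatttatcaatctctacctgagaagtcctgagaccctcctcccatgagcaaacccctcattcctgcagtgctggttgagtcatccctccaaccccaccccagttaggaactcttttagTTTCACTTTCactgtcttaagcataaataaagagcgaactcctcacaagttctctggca
Igtp: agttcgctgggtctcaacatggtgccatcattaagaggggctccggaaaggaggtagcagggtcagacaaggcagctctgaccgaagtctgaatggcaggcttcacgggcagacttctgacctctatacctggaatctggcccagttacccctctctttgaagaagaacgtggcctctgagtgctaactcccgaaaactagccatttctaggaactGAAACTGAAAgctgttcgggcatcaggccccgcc

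Of the ligands and signalling genes of interferon, 8 of 18 tested rose and 4 fell (median log2 fold change 0.16). Ifnb1, the type I interferon of macrophages, had 15, 9 and 24 counts in the combined libraries and 0 in each mock library, which makes it at least 14-fold higher against a floor of 3 counts over the mock group. The negative pool libraries held 0, 1 and 4 Ifnb1 counts. Irf7, the factor that amplifies interferon production, stood at 1061, 992 and 1152 CPM in the combined libraries, 121, 285 and 241 CPM in mock and 834, 849.8 and 882 CPM with the negative pool. Both siRNA groups were above mock for Irf7, and they overlapped neither with mock nor with each other, although their difference missed the threshold (log2 difference 0.32, adjusted p = 0.47). Usp18, which restrains the interferon receptor, rose by 2.6 ± 0.18 over mock and by 0.88 over the negative pool. Stat2, a subunit of the factor that binds the response element, rose by 1.59 ± 0.16 and 0.61. Ifngr1, the ligand-binding chain of the interferon-gamma receptor, fell by 0.42 over mock, and its log2 fold change with the negative pool was -0.41. With library totals the count of this list became 13 higher and 2 lower.

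Of 38 antiviral effectors, 37 rose in the combined libraries and none fell (median log2 fold change 1.5). Ifit3, which binds foreign RNA in a complex with IFIT1, stood at 538, 446 and 639 CPM in the combined libraries, 27.5, 75.4 and 78.8 CPM in mock and 292, 305 and 356 CPM with the negative pool. The mock libraries were the lowest, the combined libraries the highest, and the 3 groups did not overlap (log2 fold change over mock 3.16 ± 0.32, over the negative pool 0.77, adjusted p = 0.0495). Isg15, a ubiquitin-like modifier, stood at 169.5, 151 and 276 CPM against 21.1, 34.6 and 38 CPM in mock and 109, 110.5 and 133 CPM with the negative pool. Its neighbours in the list rose by 2.24 (Ifit1, which binds RNA lacking host cap marks), 2.75 (Rsad2, the antiviral enzyme viperin) and 3.71 (Ifi44). Ifit1bl1 had the largest change of the list, at 45.4, 50.7 and 88.3 CPM against 0.384, 1.26 and 0.906 CPM in mock and 7.7, 12 and 16.8 CPM with the negative pool. Samhd1, a hydrolase of deoxynucleotides, was the member without a call, with a log2 fold change of 0.16 (adjusted p = 0.236). With the negative pool all 38 rose over mock (median 1.17), and 12 of 38 were higher in combined than in negative pool libraries, none lower. Ifit3 and Ifit3b, Ifit1 and Ifit1bl1, and the Oas1 copies are related in sequence to differing degrees, so the share of reads assigned to each is uncertain.

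All 15 guanylate-binding proteins and immunity-related GTPases tested, which attack the vacuoles of intracellular pathogens, rose (median log2 fold change 2.13, or 1.96 with Gbp11 at its bound). Iigp1 stood at 17.7, 21.7 and 30.6 CPM in the combined libraries, 1.02, 2.8 and 2.44 CPM in mock and 8.85, 12.5 and 9.21 CPM with the negative pool, and Gbp4 at 4.2, 4.02 and 5.47, 0.256, 0.561 and 0.836 and 1.14, 1.8 and 2.06 CPM. For Iigp1 and Gbp4 the groups did not overlap and the combined libraries were the highest (log2 fold changes over mock 3.5 ± 0.32 and 3.05 ± 0.41). Gbp2 stood at 105, 88.2 and 147 CPM in the combined libraries, 37, 40.2 and 43.4 CPM in mock and 93.7, 86.2 and 98.8 CPM with the negative pool, and both siRNA groups overlapped each other above mock. Gbp11 had 9 counts in the combined libraries and 0 in mock, at least 2.62-fold higher against the same floor. With the negative pool 14 of the 15 rose over mock, and 7 were higher in combined than in negative pool libraries. All 7 Schlafen genes, growth-regulatory and RNA-cleaving proteins of leukocytes, rose under both pools. The largest was Slfn4, at 410.5, 467 and 403 CPM in the combined libraries, 14.1, 24.5 and 13.9 CPM in mock and 135, 142 and 113 CPM with the negative pool. Slfn1 rose by 3.41, Slfn8 by 1.23 and Slfn2 by 1.11 over mock.

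Among 17 nucleic acid sensors and their partners, 12 rose and 3 fell (median log2 fold change 0.51), against 11 and 1 with the negative pool. Zbp1, a sensor of Z-form nucleic acid, rose by 2.49 ± 0.30, Ddx58, the gene of RIG-I, by 1.47 ± 0.14, Dhx58, the gene of LGP2, by 1.28 and Ifih1, the gene of MDA5, by 1.16. Tlr9, the endosomal receptor for DNA, was highest with the negative pool at 50.4, 58 and 64.7 CPM, against 35.6, 29.9 and 38.6 CPM in the combined libraries and 18.8, 21.2 and 25.7 CPM in mock. The combined libraries thus lay above mock (log2 fold change 0.67) and below the negative pool (-0.73, adjusted p = 0.00317) without overlap. The 3 that fell were Tlr8, an endosomal receptor for RNA (59, 73.2 and 70.6 against 121, 149 and 124 CPM in mock, log2 fold change -0.95), Unc93b1, which escorts these receptors to the endosome (-0.78), and Mavs, the adaptor of the RIG-I-like receptors (-0.36, a call lost with library totals).

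NF-kB genes were raised over both controls. Of 21 subunits, inhibitors and feedback genes, 18 rose over mock and none fell (median log2 fold change 0.75). The negative pool raised 6 of the 21 over mock, and 16 were higher in combined than in negative pool libraries. Nfkbia, the feedback inhibitor of NF-kB, is shown with its promoter (chr12:55492648-55492897, minus strand) because it holds a match to the kB letters (GGG, any 2 bases and TTTCC, searched on both strands), in capitals, as did 4 of 17 promoters of the list (23.5%) and 1.75% of all:
Nfkbia: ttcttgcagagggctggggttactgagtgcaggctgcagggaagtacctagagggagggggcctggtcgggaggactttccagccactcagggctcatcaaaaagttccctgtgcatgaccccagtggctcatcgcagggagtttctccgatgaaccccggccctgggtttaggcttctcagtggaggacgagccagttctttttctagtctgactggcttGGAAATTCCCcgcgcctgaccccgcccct

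Nfkbia stood at 54.3, 53.4 and 86.3 CPM in the combined libraries, 22.1, 19.0 and 22 CPM in mock and 20.9, 18.9 and 20.1 CPM with the negative pool. The second inhibitor, Nfkbie, stood at 26.6, 27.3 and 39.8 CPM against 5.25, 6.03 and 5.65 and 5.66, 6.8 and 7.49 CPM. Among these 3 groups only the combined libraries were high for both, with no overlap (the Myc pool also raised them, by 1.64 and 2.33 over mock), and mock and negative pool differed by -0.08 and 0.24 with adjusted p of 0.881 and 0.659. The log2 fold changes over mock were 1.62 ± 0.21 for Nfkbia and 2.47 ± 0.25 for Nfkbie. Relb, the subunit of the alternative pathway, stood at 52.9, 48.8 and 58.8 CPM against 17.2, 18.3 and 21.8 CPM in mock and 15.8, 17.2 and 16.8 CPM with the negative pool. The main subunits rose less, Rela by 0.45 ± 0.09 and Nfkb1 by 0.35 ± 0.08. Icam1, an adhesion molecule for leukocytes, stood at 111.5, 95 and 171 CPM against 11.4, 15.1 and 13 CPM in mock and 23.9, 25.5 and 27.8 CPM with the negative pool, so that the negative pool was raised as well (0.97) but less. Cd40, the co-stimulatory receptor, rose by 2.16 over mock and 1.41 over the negative pool. Rel, Ier3 and Tnfaip2 passed no threshold, with log2 fold changes of 0.19, 0.27 and 0.15.

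**Figure D4:**
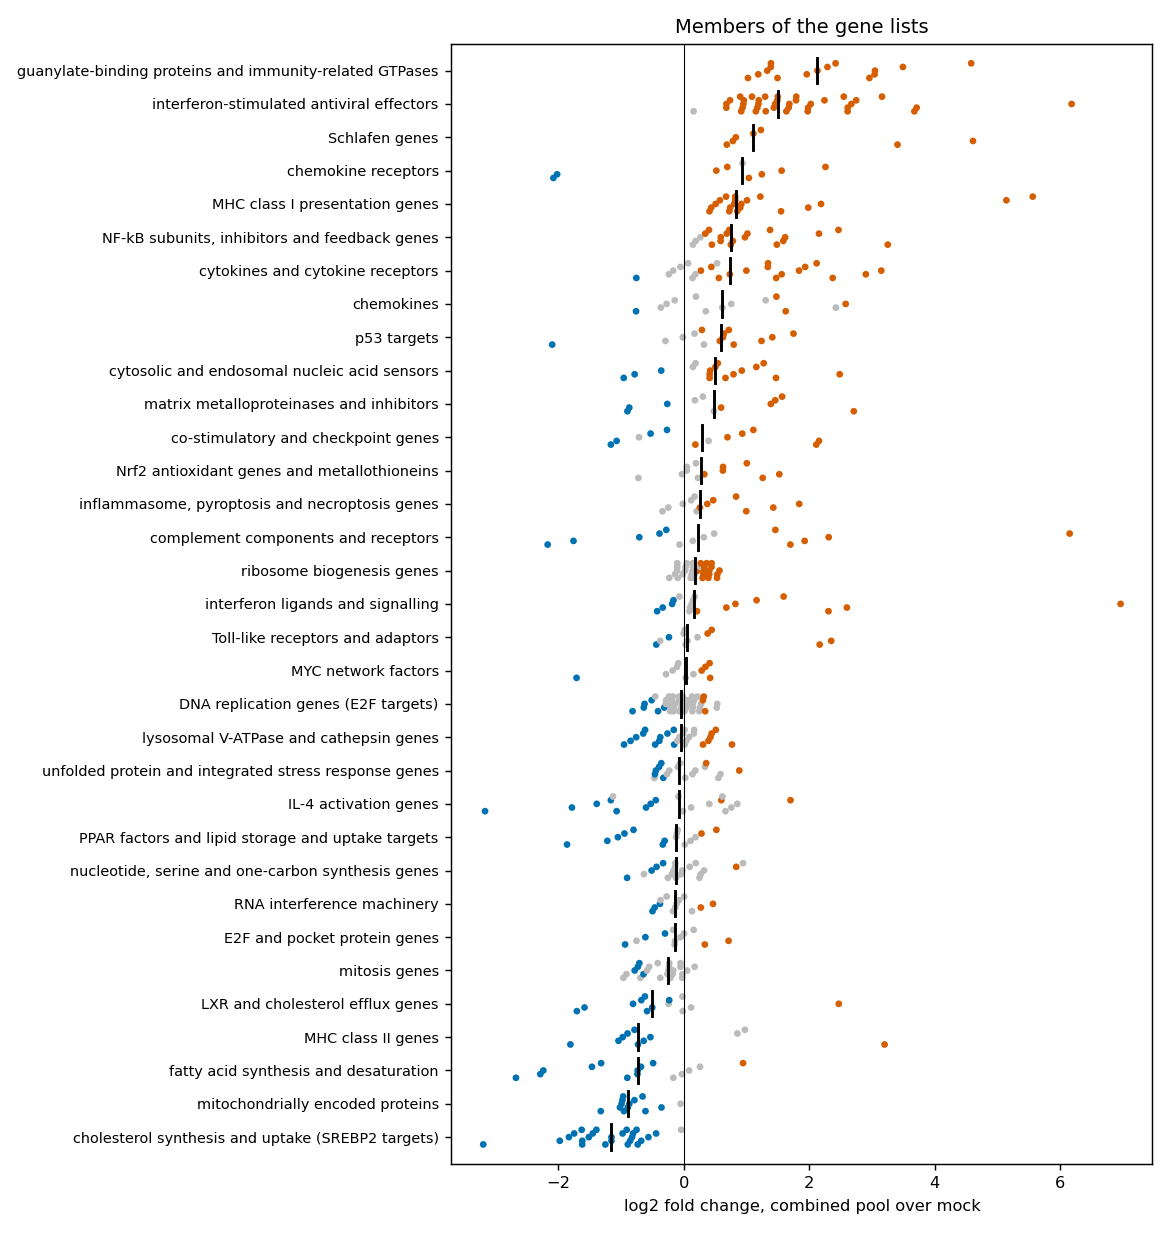
Log2 fold change of combined over mock for the tested members of each gene list (points, coloured by call) with the median of the list (black bar). Guanylate-binding proteins (median 2.13) and antiviral effectors (1.5) lie at one end and cholesterol synthesis genes (-1.15) at the other.

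Cytokines and their receptors outside the signature rose more often than they fell over mock, 15 of 23 against 1 (median log2 fold change 0.74). The negative pool against mock had 10 of the 23 higher and none lower (median 0.47). Combined against negative pool was less one-sided, with 6 higher and 4 lower. Il1rn, the antagonist of the IL-1 receptor, stood at 235, 207 and 313 CPM in the combined libraries, 51.6, 48 and 45.8 CPM in mock and 126, 137 and 132 CPM with the negative pool. Il18bp, the soluble inhibitor of IL-18, stood at 46.4, 52.8 and 70.7, 6.91, 9.39 and 6.41 and 32.4, 35.4 and 38.8 CPM. For both inhibitors the negative pool lay between mock and combined without overlap (log2 fold changes over mock 2.38 ± 0.17 and 2.9 ± 0.30). Lif, a cytokine of the IL-6 family, rose by 2.12 ± 0.49, and Il16, a chemoattractant of CD4+ cells, fell by 0.75. Tnfsf14, the ligand LIGHT, had 34 counts in the combined libraries against 3 in mock, a ratio of 9.91 (95% counting interval 3.12 to 50.4), and 22 with the negative pool. Of 13 chemokines outside the signature, 3 rose (5 with library totals) and 1 fell, a share below the 37.1% of all genes called. Ccl7, which draws monocytes, rose by 2.58 ± 0.34, Cxcl2, which draws neutrophils, by 1.63 ± 0.43, Cxcl16, a membrane-bound chemokine, by 1.48 ± 0.15, and Pf4, platelet factor 4, fell by 0.76.

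Chemokine receptors moved in both directions, 6 of 9 up and 2 down. Ccr1, a receptor of inflammatory chemokines, rose from 49.6, 67.9 and 43.1 CPM in mock to 147, 156 and 172 CPM, with 96.8, 97.1 and 88.6 CPM under the negative pool. Ccr7, which guides cells to lymph nodes, was scarce and rose from 0.384, 0.0701 and 0.209 to 1.14, 1.03 and 1.16 CPM. Ccr2, the receptor that brings monocytes into tissue, fell from 6.27, 9.61 and 6.48 to 0.763, 2.61 and 1.82 CPM, with 6.14, 5.74 and 5.32 CPM under the negative pool. Cx3cr1, the fractalkine receptor, was at 0, 0.272 and 0.182 CPM against 0.320, 1.05 and 0.627 CPM in mock, and its call was lost without combined replicate 1 or mock replicate 2. Of 12 genes in the list of Toll-like receptors and adaptors, 4 rose and 2 fell, beside 37.1% of all genes called in either direction. The count of 2 became 1 without any 1 of the combined replicates or without mock replicate 1 or 3, and 0 without mock replicate 2 or with library totals. Tlr2, the receptor for bacterial lipoproteins, stood at 75.4, 62.9 and 100.3 CPM in the combined libraries, 16.7, 18.9 and 17.4 CPM in mock and 22.7, 23.7 and 26.1 CPM with the negative pool (log2 fold change over mock 2.17, over the negative pool 1.72). Tlr4, the receptor for LPS, differed from mock by 0.03 (adjusted p = 0.835). Of 13 inflammasome and lytic death genes 7 rose and none fell, led by Mefv, the pyrin sensor (1.84), Casp4, which senses LPS in the cytosol (1.43), Mlkl, the executor of necroptosis (1.0), and Nlrp3 (0.84).

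MHC class I and class II genes moved apart. All 20 genes of class I presentation rose over mock (median log2 fold change 0.84), 17 of them also with the negative pool, and 10 were higher in combined than in negative pool libraries. Tap1, a subunit of the peptide transporter, stood at 341, 305 and 343 CPM in the combined libraries, 64.3, 92.9 and 92.4 CPM in mock and 206, 213 and 205 CPM with the negative pool. H2-Q4, a non-classical class I chain, stood at 195, 176 and 204, 42.4, 44.9 and 38.7 and 109, 106 and 98.4 CPM. The 3 groups did not overlap for Tap1 or H2-Q4 (log2 fold changes over mock 1.99 ± 0.13 and 2.19 ± 0.14). H2-Q6 and H2-Q7 rose by 5.56 and 5.14, although reads of these near-identical copies may be split between them. H2-K1, a classical chain, rose by 1.22 ± 0.11 and Nlrc5, the transactivator of class I genes, by 1.01 ± 0.10.

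Of 11 class II genes, 8 fell and 1 rose (median log2 fold change -0.73), against 3 lower and none higher with the negative pool. In combined against negative pool, 8 were lower. The count of 1 higher became 2 with library totals, the replicate block, DESeq2 or the 6 libraries alone. It was also 2 without combined replicate 1 or 3, and 3 with no filter. Ciita, the transactivator of class II genes, stood at 8.77, 10.4 and 8.45 CPM in the combined libraries, 30.7, 32.6 and 33.5 CPM in mock and 19.4, 19.5 and 21.3 CPM with the negative pool. H2-Eb1, a class II beta chain, stood at 211, 186 and 183 CPM against 380.2, 439.5 and 371 CPM in mock and 335, 323 and 326 CPM with the negative pool. Both were low in each combined library without overlap (log2 fold changes over mock -1.8 ± 0.15 and -1.04 ± 0.12, adjusted p = 3.04e-11 and 1.45e-08). H2-Ab1, another beta chain, Cd74, the invariant chain, and H2-DMa, which loads peptide, fell with log2 fold changes of -0.89, -0.73 and -0.97. H2-Oa, which restrains peptide loading, was the one that rose, from at most 0.210 CPM in mock to 0.699, 0.978 and 1.64 CPM. In bulk samples such as these, fewer cells of a type and less RNA per cell cannot be told apart. The summed level of 8 macrophage markers was 12350 to 13300 CPM in the combined libraries, 15200 to 16480 CPM in mock and 12930 to 13920 CPM with the negative pool, and 4 of the 8 fell (Adgre1, Csf1r, Lyz2 and Mertk). The calls of Adgre1 and Csf1r were lost with library totals, and that of Adgre1 also without combined replicate 1 or 3 or mock replicate 2. The 6 B cell markers, cells that also carry class II, summed to 31.1, 129 and 42.3 CPM in the combined libraries and 17.7 to 34.6 CPM in mock, none of them called. The 5 dendritic cell markers summed to 4.5 to 5.34 CPM against 2.51 to 4.56 CPM. The part of these cells in the results was not tested.

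The neutrophil markers summed to 57.4 to 64 CPM in the combined libraries and 24.6 to 30.3 CPM in mock, with 31.8 to 48.1 CPM under the negative pool. Most of this was Mmp8 (2722 counts against 904 in mock), while S100a9, Ly6g and Camp were at 0 in both groups. Mesothelial and fibroblast markers summed to 256 to 421 CPM against 187 to 305 CPM in mock, with 1 of 9 tested higher and 2 lower. Mast cell markers summed to at most 6.08 CPM, and erythroid markers were at 0 in all combined libraries. Eosinophil markers summed to 23.7 to 35.6 CPM in the combined libraries, 18.8 to 20.2 CPM in mock and 33.6 to 38.9 CPM with the negative pool, without overlap between combined and mock. Nearly all of this was Siglecf, which rose by 0.61 (adjusted p = 0.0144). T and NK cell markers summed to 0.425 to 2.92 CPM against 0.139 to 0.512 CPM in mock, and Gzma, a granzyme, was higher (48 counts against 4, adjusted p = 0.0425). Large peritoneal macrophage markers summed to 32.9 to 51 CPM against 42.6 to 67.1 CPM in mock, with 2 of 5 higher and 1 lower.

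Genes of cholesterol synthesis fell together. Of 25 genes of cholesterol synthesis and uptake, targets of SREBP2, 24 fell and none rose (median log2 fold change -1.15). The negative pool lowered 17 of the 25 against mock (median -0.50), and 23 were lower in combined than in negative pool libraries. Idi1, an isomerase of the isoprenoid steps, stood at 8.26, 9.45 and 9.61 CPM in the combined libraries, 28.6, 30.9 and 37.7 CPM in mock and 21.1, 20.6 and 28.3 CPM with the negative pool, and Cyp51, a lanosterol demethylase, at 22.1, 24 and 28.5, 72.2, 77.3 and 100.5 and 48.8, 51 and 64.3 CPM. For both genes the combined libraries were the lowest and mock the highest with no overlap between the groups (log2 fold changes over mock -1.83 ± 0.20 and -1.74 ± 0.16). Fdps, which makes farnesyl pyrophosphate, and Srebf2, the gene of SREBP2 itself, fell with log2 fold changes of -1.97 and -0.81. The promoter of Hmgcs1, an early enzyme of the pathway, was the one of 17 in this list with the sterol response letters TCACNCCAC (capitals, chr13:119690101-119690350, plus strand), against 1.21% of all promoters:
Hmgcs1: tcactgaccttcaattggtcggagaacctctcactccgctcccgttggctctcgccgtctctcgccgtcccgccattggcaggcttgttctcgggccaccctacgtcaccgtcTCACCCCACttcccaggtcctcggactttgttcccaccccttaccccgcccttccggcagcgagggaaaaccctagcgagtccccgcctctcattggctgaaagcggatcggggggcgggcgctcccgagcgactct

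Hmgcs1 stood at 47.6, 49.4 and 55.6 CPM in the combined libraries, 116, 129 and 155 CPM in mock and 89.9, 83.2 and 109.9 CPM with the negative pool, without overlap. Fatty acid synthesis and desaturation genes outside the signature fell in 10 of 15 cases and rose in 1. Elovl6, an elongase of saturated fatty acids, stood at 1.21, 0.978 and 1.46 CPM against 7.23, 7.78 and 8.23 CPM in mock and 4.39, 3.47 and 4.23 CPM with the negative pool. Acsl3, which activates fatty acids, stood at 6.04, 5.32 and 5.72, 23, 27.8 and 29.6 and 12.8, 11.5 and 16.5 CPM in that order. Elovl6 and Acsl3 were lowest in the combined libraries and the groups did not overlap. The desaturases Fads2 and Fads1 and Srebf1, the gene of SREBP1, fell as well (log2 fold changes -2.28, -1.31 and -0.74). Acacb, a mitochondrial acetyl-CoA carboxylase, was the one that rose (0.95), a call lost with no filter on low counts and without combined replicate 1 or 2 or mock replicate 2 or 3.

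Of 13 genes of cholesterol efflux and of the nuclear receptor LXR, its ligands included, 8 fell and 1 rose (median log2 fold change -0.50). Apoe, the apolipoprotein secreted by macrophages, stood at 4136, 4073 and 3065 CPM in the combined libraries, 11277, 11176 and 14207 CPM in mock and 9011, 8208 and 8952 CPM with the negative pool. Cyp27a1, which makes an oxysterol ligand of LXR, stood at 16.1, 16.7 and 14.2, 43.5, 47.7 and 49.8 and 40.1, 35.3 and 36.5 CPM. Apoe and Cyp27a1 were low in each combined library without overlap (log2 fold changes over mock -1.7 ± 0.19 and -1.58 ± 0.12). Apoe differed by -0.49 between negative pool and mock (adjusted p = 0.0895). The transporters Abcg1 and Abca1 fell (log2 fold changes -0.67 and -0.58), and Nr1h3, the gene of LXR-alpha, missed the threshold (-0.24, adjusted p = 0.115). Ch25h, which makes 25-hydroxycholesterol, was scarce and was the one that rose, at 0.445, 0.869 and 1.03 CPM against 0.192, 0.0701 and 0.139 CPM in mock, a call lost without combined replicate 2 or 3 or mock replicate 2 or 3.

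Of 15 PPAR factors and targets of lipid storage and uptake, 7 fell and 2 rose (median log2 fold change -0.12), and with library totals 5 fell and 4 rose (median 0.04). Lpl, lipoprotein lipase, stood at 876, 1190.2 and 1057 CPM in the combined libraries, 3419, 4386 and 3516 CPM in mock and 1649, 2017 and 2104 CPM with the negative pool, without overlap. Ucp2, a mitochondrial carrier, fell by 1.22 on the log2 scale. Hadha and Hadhb, the chains of the trifunctional enzyme of fatty acid oxidation, had log2 fold changes of -0.94 ± 0.05 and -1.05 ± 0.17. Fabp4, a fatty acid binding protein known as a target of PPARG, passed no threshold (-0.10, adjusted p = 0.554).

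IL-4 activation genes outside the signature did not move as one group. Of 19, 8 fell and 2 rose, and the median of -0.08 became 0.08 with library totals, when 5 fell and 4 rose. The median ranged from -0.41 without combined replicate 2 to 0.19 without mock replicate 2 when 1 library was left out. Ear2, an eosinophil-associated ribonuclease, fell from 10.3, 10.5 and 7.95 CPM in mock to 0.953, 1.36 and 0.851 CPM, with 3.55, 2.93 and 4.63 CPM under the negative pool. Mgl2, a galactose-type lectin of alternatively activated macrophages, fell from 12.9, 15.8 and 10.2 to 4.13, 3.97 and 3.22 CPM, with 13.3, 11.5 and 9.49 CPM under the negative pool. Neither overlapped between combined and mock, and for Mgl2 the negative pool overlapped mock. Matk, a kinase that restrains Src, fell by 1.38 on the log2 scale. Pdcd1lg2, the checkpoint ligand PD-L2, had a log2 fold change of -1.16, and its call was lost with library totals and without combined replicate 1 or 3 or mock replicate 2. Flt1, a receptor for vascular endothelial growth factor, rose by 1.7 in the combined libraries and by 1.96 with the negative pool. Irf4, a factor of the IL-4 response, differed from mock by 0.12 (adjusted p = 0.691).

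Partners of the targeted factors were examined next. Of 11 MYC network factors, the repressor Mxd4, which competes with MYC for MAX, stood at 26.8, 27.5 and 24.4 CPM in the combined libraries, 82.6, 84 and 90.5 CPM in mock and 52.7, 55 and 60.2 CPM with the negative pool. The groups did not overlap, and Mxd4 was the one that fell, against 2 with the replicate block (-1.71 ± 0.09, adjusted p = 5.96e-16). Max, the shared partner of MYC and its repressors, Mga, Mxd1 and Mlx rose by 0.42, 0.41, 0.35 and 0.29. With 4 higher and 1 lower of 11, the share of called genes was near the 37.1% of all genes. Without mock replicate 3 only 2 of the list were higher. The call of Mxd1 was lost without combined replicate 1 or 2 or any 1 of the mock replicates. Of 33 ribosome biogenesis genes, many of which are known targets of MYC, 15 rose and none fell (median log2 fold change 0.18, with 23 higher under library totals), 13 of 33 were higher in combined than in negative pool libraries, and 1 was higher and 1 lower in negative pool against mock. Rrp9, which helps process ribosomal RNA, stood at 29.4, 21.8 and 25.9 CPM against 16.2, 16.2 and 19.4 CPM in mock, and Nip7, a factor of the large subunit, at 40.0, 41.7 and 41.2 CPM against 28.6, 29.4 and 27 CPM. Rrp12 and Mrto4 rose by 0.54 and 0.45. Of 20 nucleotide, serine and one-carbon genes outside the signature, 4 fell and 1 rose, a share of called genes below the 37.1% of all genes. The counts were 3 and 5 with library totals and 5 and 2 with the replicate block. Mthfd1l, a mitochondrial folate enzyme, fell by 0.90 and Odc1, the first enzyme of polyamine synthesis and a known target of MYC, rose by 0.84.

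Genes of the cell cycle moved in both directions. Of 12 E2F and pocket protein genes, 3 fell and 2 rose, and 2 fell and 3 rose with library totals, also near the share of 37.1% of all genes called. Among those called were Rb1, the E2F repressor, from 47.7, 38.3 and 33.6 to 24.4, 27.5 and 26.5 CPM, Tfdp2, an E2F partner (-0.93), and E2f4, which acts mainly as a repressor and rose by 0.34. Of 43 DNA replication genes, 6 fell and 3 rose, beside 37.1% of all genes called in either direction, and 2 fell and 6 rose with library totals. Pcna, the sliding clamp, fell from 107, 103 and 112.3 CPM in mock to 61.1, 63.1 and 59 CPM without overlap (-0.81 ± 0.08, adjusted p = 6.36e-10). Of 24 mitosis genes 4 fell, beside 18.1% of all genes tested. They were Ccnb2, Aurkb, Top2a and Kif23, with log2 fold changes of -0.78 to -0.64. The count was 0 or 1 when combined replicate 1 or 2 or mock replicate 1 or 2 was left out, and 0 with library totals. Targets of p53 rose in 9 of 14 cases and fell in 1, or in 2 with the replicate block. Cdkn1a, the gene of the cell cycle inhibitor p21, stood at 293, 213 and 341 CPM in the combined libraries, 86.2, 85.1 and 80.0 CPM in mock and 166, 150.1 and 166 CPM with the negative pool. The groups did not overlap for Cdkn1a, with the combined libraries highest. Fas, a death receptor, and Phlda3, a brake on AKT, rose by 1.41 and 1.24. Sesn1, a sestrin, moved the other way, at 24, 32.3 and 23.1 CPM in the combined libraries, 111, 116 and 113 CPM in mock and 60.1, 58.8 and 62.9 CPM with the negative pool (-2.09 ± 0.11).

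Among stress responses, 6 of 12 Nrf2 antioxidant genes and metallothioneins rose and none fell, 3 with the negative pool. Slc7a11, the cystine importer, rose from 22.1, 20.7 and 13.3 CPM in mock to 48.6, 60.7 and 52.2 CPM, with 29.7, 38.3 and 28.6 CPM under the negative pool. Gclm, a subunit of the enzyme that starts glutathione synthesis, stood at 42, 52.6 and 58.6 CPM against 24.1, 27.7 and 24.5 CPM in mock and 23.5, 29.6 and 25.1 CPM with the negative pool, high only in the combined libraries among these 3 groups, although the Myc pool also raised Gclm (0.97 over mock). Nqo1, a quinone reductase, rose by 1.26. Of 18 genes of the unfolded protein and integrated stress responses, 5 fell and 2 rose, a share of called genes near the 37.1% of all genes. The counts were 2 and 5 with library totals and 6 and 4 with the replicate block. Ddit3, the gene of CHOP, rose by 0.89 in the combined libraries and by 0.92 with the negative pool, and Xbp1 fell by 0.44. The RNA interference machinery had 2 of 13 genes higher and 3 lower, or 3 and 2 with library totals, a share of called genes near the 37.1% of all genes. Ago1, an argonaute, fell by 0.46, Tarbp2, a partner of Dicer, rose by 0.47, and Ago2, the slicing argonaute, differed by 0.01 (adjusted p = 0.972).

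Complement genes split. Of 14, 5 rose and 5 fell, the latter 3 with library totals. C3, the central component, stood at 648, 776 and 816 CPM in the combined libraries, 98.6, 181 and 172 CPM in mock and 119, 225 and 177 CPM with the negative pool, so that only the combined libraries were high among these 3 groups, while the Myc pool also raised C3, by 2.18 (2.31 ± 0.32 over mock, 2.11 over the negative pool). C5ar1, the receptor for C5a, stood at 75.8, 101 and 66.2 CPM in the combined libraries, 243, 309 and 272 CPM in mock and 164, 180.1 and 184 CPM with the negative pool. C5ar1 was lowest in the combined libraries without overlap (log2 fold change -1.75). Serping1, the C1 inhibitor, rose by 1.93. Of 11 matrix metalloproteinases and inhibitors 5 rose and 3 fell. Mmp14, a membrane-bound collagenase, stood at 247, 227 and 303 CPM in the combined libraries, 34.6, 41.3 and 42.8 CPM in mock and 54.3, 63.2 and 76.9 CPM with the negative pool. Mmp8, a collagenase also known from neutrophils, rose by 1.39 and Timp1, an inhibitor, by 1.57, while Timp2 fell by 0.90.

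Lysosomal genes moved in both directions. Of 26 V-ATPase and cathepsin genes with their regulators, 11 fell and 6 rose (7 and 10 with library totals). Ctsd, the aspartic protease, stood at 14968, 14409 and 12545 CPM in the combined libraries, 24856, 25265 and 25219 CPM in mock and 25254, 22851 and 23471 CPM with the negative pool, so that only the combined libraries were low among these 3 groups. Ctsd was also lower with the Myc pool (-0.80 over mock), which lowered 11 of the 26 genes. The cysteine proteases Ctsl and Ctsb fell (log2 fold changes -0.61 and -0.64), whereas Ctsk, a collagen-degrading cathepsin, rose from 852, 689 and 807 to 1421, 1181 and 1405 CPM. Atp6v0a1, a membrane subunit of the proton pump, and Mitf, a factor of lysosomal genes, fell with log2 fold changes of -0.95 and -0.76.

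Mitochondrially encoded transcripts were lower in both siRNA groups. Of 13, 12 fell in combined against mock (median log2 fold change -0.89) and 10 in negative pool against mock (-0.56), and 1 was lower in combined than in negative pool libraries. mt-Nd1, a subunit of complex I, stood at 713, 733 and 844 CPM in the combined libraries, 1589.8, 1401 and 1552 CPM in mock and 966, 985 and 1008 CPM with the negative pool. mt-Nd4, another subunit, stood at 434, 455 and 505, 977, 951 and 887 and 557, 549 and 573 CPM. In each case the siRNA groups were below mock without overlap. All mitochondrial transcripts together took 0.971 to 1.2% of counts in the combined libraries, 1.32 to 1.57% in mock and 1.08 to 1.1% with the negative pool. mt-Co1, a subunit of complex IV, fell by 0.35, a call lost with library totals and without combined replicate 1 or mock replicate 1.

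Of 12 co-stimulatory and checkpoint genes outside the signature, 6 rose and 4 fell (median log2 fold change 0.29). The negative pool against mock had 8 higher and 1 lower (median 0.58). Combined against negative pool had 2 higher and 4 lower. Beside Cd40, Icosl, the ligand of ICOS, was scarce and rose by 2.11 in the combined libraries and by 1.78 with the negative pool. Havcr2, the checkpoint receptor TIM-3, rose by 1.11 and 0.94. Vsir, the checkpoint protein VISTA, fell from 874, 836 and 875 CPM in mock to 423, 428 and 382 CPM without overlap, with 698, 694 and 663 CPM under the negative pool.

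The single pools, compared with the same mock libraries, were set side by side with the combined pool. The Myc pool gave 2808 higher (19.8%) and 2674 lower genes (18.9%), the Pparg pool 1359 (9.59%) and 1082 (7.63%), the E2f1 pool 894 (6.31%) and 754 (5.32%), and the Stat6 pool 869 (6.13%) and 755 (5.33%). Tested directly, combined against Myc pool had 0 higher and 7 lower genes (0.0494%), with 427 genes at an unadjusted p under 0.05, which is 3.01% of those tested. DESeq2 called 0 higher and 11 lower genes. The 7 were the other 3 targets (Pparg, Stat6 and E2f1), Angptl4, a lipase inhibitor known as a target of PPARG (-1.2), Sort1, a lysosomal sorting receptor (-0.78), Snx27, an endosomal sorting protein (-0.39), and the predicted gene Gm13910 (-0.45). Angptl4 averaged 2.63 CPM in the combined libraries, 6.08 CPM with the Myc pool and 4.61 CPM in mock, and Sort1 48, 82.1 and 211 CPM. The median SE of this comparison was 0.12 on the log2 scale, and a gene that missed the threshold is not shown to be equal under both pools.

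For the gene groups above, the Myc pool gave medians over mock of 1.42 for antiviral effectors, 0.76 for NF-kB genes, -1.14 for cholesterol genes, -0.90 for class II genes and -0.95 for mitochondrially encoded genes. With the other single pools the antiviral effectors had medians over mock of 1.18 (E2f1), 1.31 (Pparg) and 1.2 (Stat6). NF-kB genes had medians of 0.09 with the E2f1 pool, 0.40 with Pparg and 0.33 with Stat6, and 19, 14 and 14 of the 21 were higher in the combined libraries than with these pools when tested directly. No NF-kB, cholesterol, class I or class II gene of the lists passed the test between combined and Myc pool. Combined against the E2f1, Pparg and Stat6 pools called 1453 (10.3%), 1088 (7.68%) and 1477 (10.4%) higher and 1605 (11.3%), 1456 (10.3%) and 1672 (11.8%) lower genes.

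**Figure D5:**
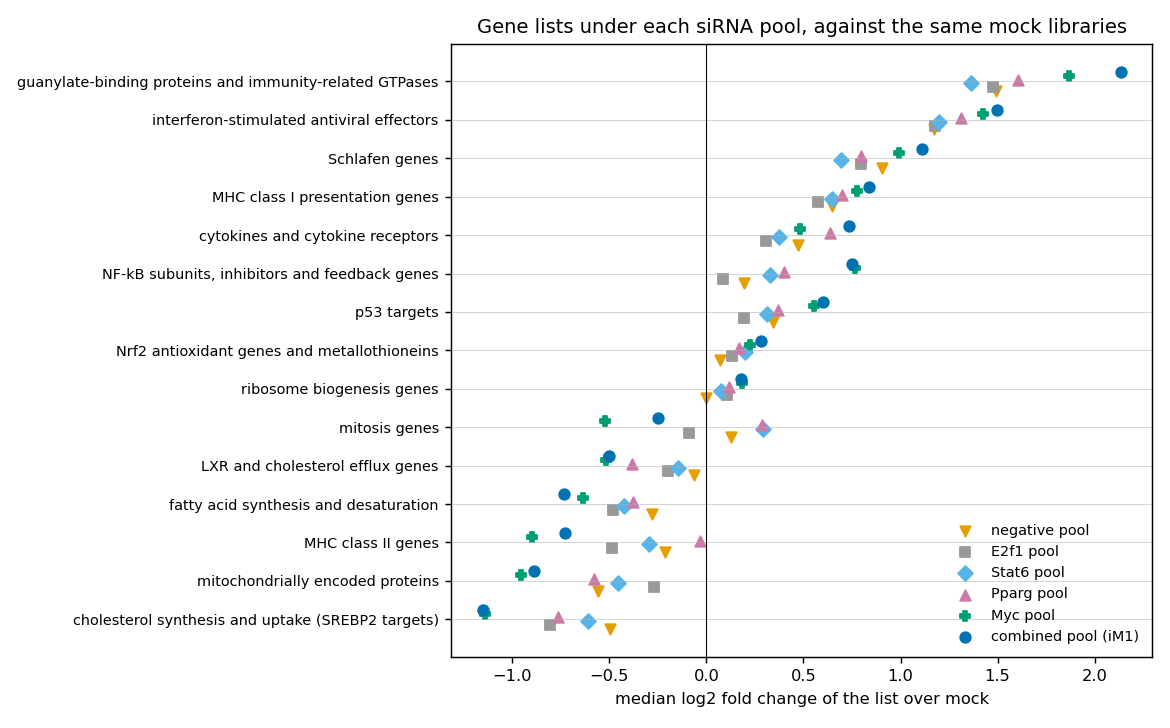
Median log2 fold change over the same mock libraries for selected gene lists (rows) under the negative, single and combined siRNA pools (points). The Myc and combined pools lie at 0.76 and 0.75 for NF-kB genes and at -1.14 and -1.15 for cholesterol genes. They lie further apart for mitosis genes (-0.52 and -0.25), guanylate-binding proteins (1.87 and 2.13) and cytokines (0.48 and 0.74). All pools lie above 1 for antiviral effectors.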

How the data were processed

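Paired-end RNA sequencing of M2-like peritoneal macrophages was used, 3 libraries each of the combined siRNA pool, mock and the negative siRNA pool, within the 36 libraries (12 conditions) of the reprogramming experiment. The authors trimmed reads with Trimmomatic, aligned them with TopHat2 to the mouse genome (GRCm38, mm10) and counted them per gene with featureCounts, and the deposited values are raw read counts. Tool versions, annotation and strand setting are not given in the sources used here. Symbols were matched for 37693 of 39179 gene identifiers.

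Counts were filtered with filterByExpr, scaled by TMM and fitted to condition over all 36 libraries with edgeR 4.0.16 (R 4.3.3) using its quasi-likelihood test, which is two-sided. P-values were adjusted by Benjamini-Hochberg across every gene tested. CPM values were computed here from the counts. DESeq2 1.42.0, other scalings and filters, the groups alone, a replicate block and each replicate left out were alternatives. Library totals as scaling and the comparison with the Myc pool were added after seeing the data. The script was tested on simulated data. The replicate numbers come from the labels. Same-numbered combined and mock libraries deviated together (correlations of 0.20, 0.19 and 0.16 over 10334 genes), so the numbers may pair samples. Mock replicate 2, however, correlated at 0.11 with negative pool replicate 3 and at 0.07 with negative pool replicate 2. The fit behind the reported calls left this pairing out, and only the replicate block alternative included it. No libraries were alike within sampling noise. Counting intervals are at the 95% level and, like the floor of 3 counts, cover counting error only.

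Named genes were the 4 targets, the 15 largest increases and decreases outside the signature (symbol, protein coding, called, no overlap, mean log2 CPM of at least 2), up to 4 called members per list with the largest changes (the other members too where 5 or fewer were called) and the markers. Others, such as members without a call, were named after their values were seen. The groups compared, the gene lists and the comparisons were chosen with earlier results of these data known. Some genes the rule names are not reported here.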

Additional observations from a re-analysis of the deposited data

How the results depend on the processing

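Of combined against mock, 2238 to 2415 genes were higher and 2183 to 2294 lower when 1 library was left out, and the count stayed within 1.5 times the reported one with RLE size factors (2543 higher, 2673 lower), no filter, a minimum of 1 CPM, the 6 libraries alone (2252 and 2318) and DESeq2 (2483 and 2660). With the replicate block, 2933 were higher and 2759 lower, and 5252 of the 5254 called genes kept their call, as did all named genes called. The counts of class II, MYC network, nucleotide, p53 and stress response genes that it moved by over 1.5 times are given with those groups. With library totals 4714 were higher and 1463 lower, and with a minimum absolute log2 fold change of 1, 638 and 436. Negative pool against mock gave 224 and 57 at that minimum, and 635 to 865 higher and 407 to 672 lower genes with 1 library left out (407 without mock replicate 3, 429 without negative pool replicate 1). Combined against negative pool gave 3562 and 1142 with library totals, 225 and 278 at the minimum, and 1257 to 1460 and 1536 to 1662 with 1 library left out. Combined against Myc pool gave 5 higher and 23 lower genes with no filter, 11 lower with DESeq2, 2 lower at the minimum, 8 lower with the block, and 3 to 6 lower (0 higher) with 1 library left out, the 3 applying without any of the combined replicates or Myc pool replicate 1. The cause of the shift between scalings was not tested. Of 5946 values for 459 named genes, 5622 kept direction and call, 322 kept direction only, and 2 reversed, Atp6v1a (0.0032) and Atp6v1b2 (0.0102) with library totals. Depth limits scarce genes such as Gbp11 (9 counts against 0), whose call was lost without mock replicate 1.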
